A study of Mus musculus with 4 samples.

Results

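Conventional dendritic cells (cDCs) were picked out of single-cell RNA sequencing of mouse bone marrow by raw counts of unique molecular identifiers (UMIs), each of which stands for 1 captured transcript. A cell was taken when it held at least 5 UMIs of H2-Ab1, at least 1 of Flt3 and at least 1 of Cd209a, Xcr1 or Clec9a together, and 0 of Siglech and of Cd79a. These gates left 122 of 39743 cells, or 0.307%, so that the cells were selected on the measured UMIs of these 7 genes. The cells come from the 5TMM model, in which C57BL/KawRij mice were injected into a vein with 5TGM1-luc mouse myeloma cells at 6 weeks of age. After 3 weeks, 2 mice were given vehicle and 2 mice were given 10 mg/kg purinostat mesylate (PM), an inhibitor of class I and class IIb histone deacetylases, and marrow was taken after 24 h. All 4 mice therefore carried the myeloma line, and mice without myeloma were not part of the comparison. Red cells were lysed, no other cell was removed, and 1 droplet library was made per mouse, so the mouse is the replicate.

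Dendritic cells present antigen to T cells. Conventional ones arise in bone marrow from precursors that depend on the receptor FLT3 and its ligand, and they are usually divided into cDC1, which need the transcription factors IRF8 and BATF3 and take up dead cells through CLEC9A, and cDC2, which carry SIRPA, use IRF4 and express C-type lectins such as CD209A. The marrow holds mostly their dividing precursors and recently formed cells, while mature migratory cells with CCR7 are found in tissues and lymph nodes. Plasmacytoid dendritic cells (pDCs), with Siglech and Tcf4, are the interferon-producing branch, and monocytes can also express MHC class II.

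Of the kept cells, 20 of 9261 in vehicle replicate 1, 38 of 7826 in vehicle replicate 2, 43 of 13387 in PM replicate 1 and 21 of 9269 in PM replicate 2 passed. The gated cells held 285973, 437268, 446885 and 300323 UMIs in that order, with medians of 10515, 10027, 8461 and 13524 per cell. Kept cells as a whole had lower medians, from 4717 to 6067. Pairs of libraries shared 18 to 39 cell barcodes.

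The gate values themselves are a description, since they chose the cells. H2-Ab1, a chain of MHC class II, stood at 4371, 4489, 4838 and 3922 CPM (counts scaled to 1000000 UMIs of the cells summed) in vehicle replicates 1 and 2 and PM replicates 1 and 2. Flt3 was at 280, 297, 210 and 223 CPM. The lectin gene Cd209a was at 605, 1107, 430 and 483 CPM. Clec9a was at 175, 54.9, 94.0 and 69.9 CPM. Xcr1, the chemokine receptor that marks cDC1, was at 182, 2.29, 11.2 and 0 CPM, and only 5 cells held a UMI of it, 3 of them in vehicle replicate 1. Close to the lower limit of the first gate, 9 gated cells held 5 to 9 UMIs of H2-Ab1, while 25 cells that passed every other gate held 1 to 4 and another 37 held none. A single UMI of Flt3 let in 34 of the 122 cells, and a single UMI of the 3 subset genes let in 22. At the gate on Siglech, 41, 70, 96 and 65 cells entered and 20, 39, 46 and 22 remained.

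Markers that the gates did not use showed cells of the dendritic lineage with precursor and monocyte features. Itgax, the integrin chain CD11c, was detected in 46.7% of gated cells and Zbtb46, a transcription factor largely restricted to cDCs, in 30.3%. In cells gated as T cells (Cd3e of at least 2 UMIs), which should lack both, the shares were 4.6% and 0.7% at shallower medians of 3675 to 4286 UMIs. Only 2.5% of pDC-gated cells and 2.2% of MHC II monocyte-gated cells held a Zbtb46 UMI, while 44.0% and 21.6% held one of Itgax. Ccr2, a receptor shared by cDC precursors and monocytes, was found in 98.4% of gated cells, Cx3cr1 in 71.3%, Csf1r in 54.9% and Ly6c2 in 68.9%. Tcf4 was detected in 73.0% and Bst2 in 81.1%. The pDC gene Cox6a2, present in 86.4% of pDC-gated cells, was at 0 of 122 cells, as were Ccr7, Ms4a1, Pf4 and Ppbp. The proliferation gene Mki67 was detected in 45.1%, against 19.3% of pDC-gated and 17.5% of MHC II monocyte-gated cells, which were shallower (medians of 8461 to 13524 UMIs per mouse in gated, 6052 to 6895 in pDC-gated and 7020 to 8100 in monocyte-gated cells). On the CPM scale Mki67 was at 552.5, 364, 521 and 506 in gated cells, 339, 281, 281 and 89.5 in pDC-gated cells and 140, 191, 330 and 376 in monocyte-gated cells of vehicle replicates 1 and 2 and PM replicates 1 and 2. Neutrophil transcripts were present in nearly every cell type, with S100a8 in 95.1% of gated cells and 92.3% of T cells, so that such shares are read here as background. Ighm was detected in 92.6% of gated cells and 50.8% of T cells.

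Outside the genes of the gates, the MHC class II genes led the comparison with all other kept cells. H2-Eb1 averaged 2507 ± 162 CPM (SD, n = 4 mice) in gated cells and 51.8 ± 19.2 elsewhere, and Ciita, the master regulator of MHC class II, 251 ± 38.5 against 6.59 ± 1.44. Ifi205, Ckb, Olfm1 and Pid1 followed, with 143 against 2.24 CPM for Ifi205. Against pDC-gated cells the leading genes were Ccl9, Naaa and Id2, and those far lower were Ly6d, at 3.64 against 1499 CPM, Ccr9 and Dntt. Against MHC II monocyte-gated cells, Cd7, Kmo, Ccnd1 and Slamf7 were higher, while Apoe, at 68.8 against 2194 CPM, Pla2g7 and the complement genes C1qa and C1qb were lower. These genes were taken as the largest ratios that held in 4 of 4 mice, and since the gates chose the cells they were not tested.

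The cDC1-like class held cells with Xcr1 or Clec9a and no Cd209a, the cDC2-like class cells with Cd209a and neither of the others, and a remaining class held both. There were 24 cDC1-like, 73 cDC2-like and 25 cells with both, and every class was spread over the mice except that vehicle replicate 1 had no cell with both.

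**Figure D1:**
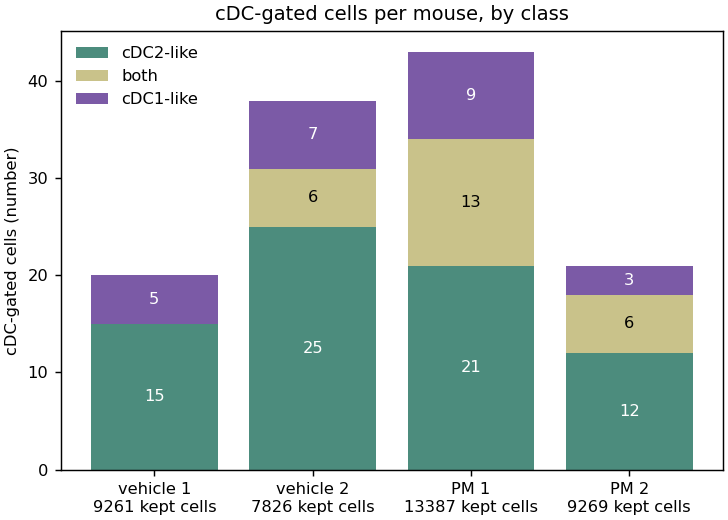
Number of cDC-gated cells in each mouse, stacked by class, with the number of kept cells under each bar. The cDC2-like class is the largest in all 4 mice, and cells with both kinds of marker number 0 and 6 after vehicle and 13 and 6 after PM.

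Subset genes that the split did not use were compared between the classes. Of 17 other cDC1 genes, 7 were higher in cDC1-like cells in 4 of 4 mice and 0 were higher in cDC2-like cells in all mice, and of 19 other cDC2 genes 9 were higher in cDC2-like cells in 4 of 4 mice and 0 the other way. For the 3514 genes averaging 50 CPM or more the shares were 14.7% and 10.7%. Irf8 stood at 3074, 2129, 1232 and 2752 CPM in cDC1-like cells of vehicle replicates 1 and 2 and PM replicates 1 and 2, and at 114, 129, 398 and 57.7 CPM in cDC2-like cells. The 2 ranges did not overlap. Of the 9 cDC1-like cells of PM replicate 1, 4 went against the name, with 0 to 3 Irf8, 18 to 60 Ly6c2 and 2 to 4 Csf1r UMIs each, and they held 13 of the 14 Csf1r UMIs of the class. The other 20 cDC1-like cells of the 4 mice had 5 to 84 Irf8 UMIs, 0 to 17 of Ly6c2 and at most 1 of Csf1r. Without these 4 cells, a choice made after their values were seen, Irf8 was at 2213 CPM in PM replicate 1, and the values of the class given here include them unless stated. Tlr3, the sensor of double-stranded RNA, averaged 124 ± 68.4 CPM in cDC1-like and 4.12 ± 5.47 in cDC2-like cells (SD, n = 4 mice). Wdfy4, needed for cross-presentation, averaged 465 ± 209 and 116 ± 44.8 CPM. Batf3 did not separate the classes in every mouse, with 250, 142, 123 and 190 CPM in cDC1-like and 34.6, 48.6, 156 and 165 CPM in cDC2-like cells. The cDC1 markers Cadm1 and Itgae did not either. A UMI of them was found in 2 and 3 of 24 cDC1-like cells, and they were higher in that class in 1 and 2 of 4 mice. In the cDC2-like direction, Sirpa was at 0, 21.8, 29.0 and 15.8 CPM in cDC1-like and 455.3, 352, 237 and 297 CPM in cDC2-like cells. The lectin genes Clec10a and Mgl2 averaged 299 ± 128 and 232 ± 233 CPM in cDC2-like cells, and cDC1-like cells had 1.81 and 0. Irf4 averaged 71.5 ± 24.5 against 8.19 ± 16.4 CPM. Of the other cDC2 markers, Itgam was higher in cDC2-like cells in only 2 of 4 mice, and Clec4a4 had no UMI in either class. Csf1r, the receptor of the macrophage growth factor, was also higher in cDC2-like cells in 4 of 4 mice.

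Cell division set the classes apart as well. Of 24 cDC1-like cells, 18 held Mki67 and 18 Top2a, against 30.1% and 19.2% of cDC2-like cells, and cDC1-like cells were deeper, with medians of 12919 to 22491 against 6848 to 9927 UMIs. On the CPM scale, which corrects for depth, 19 of 30 S phase genes and 12 of 30 G2M genes were higher in cDC1-like cells in 4 of 4 mice and none of either list in cDC2-like cells. Among genes averaging 50 CPM or more, 14.7% were higher in cDC1-like and 10.7% in cDC2-like cells in 4 of 4 mice. Some genes of the 2 lists lay below that limit. Kit, the stem cell factor receptor, was detected in 58.3% of cDC1-like and 9.6% of cDC2-like cells. Cells with both markers had Cx3cr1 in 96.0%, Ly6c2 in 92.0% and Mki67 in 60.0%, and their Irf8 averaged 530 CPM over the 3 mice that had such cells. Of these cells 19 came from PM mice and 6 from vehicle mice, so the pooled shares rest mostly on PM mice. All of these are descriptions of cells that the same counts had divided.

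**Figure D2:**
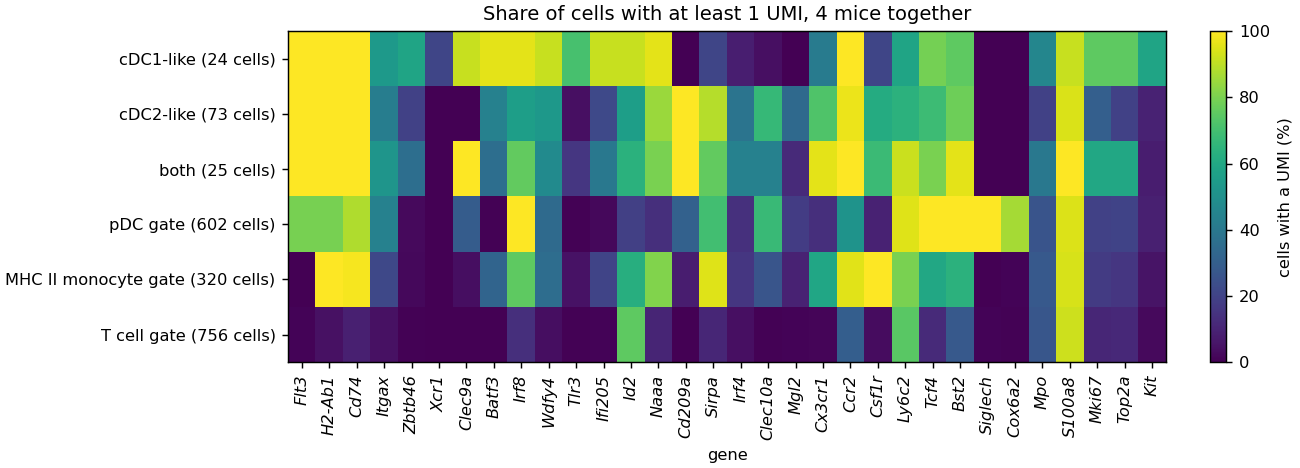
Share of cells with at least 1 UMI of each gene (color, in percent) in the 3 classes of cDC-gated cells and in 3 other gates, with the 4 mice together. Among the 3 classes Irf8, Tlr3, Wdfy4 and Ifi205 are most often detected in cDC1-like cells and Sirpa, Clec10a and Mgl2 in cDC2-like cells, while Irf8 and Clec10a are as frequent in the pDC gate and Sirpa in the monocyte gate.

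The first comparison of PM with vehicle was the number of cells. The gated share was 0.216% and 0.486% of kept cells after vehicle and 0.321% and 0.227% after PM. The vehicle mice thus lay on both sides of the PM mice. Means were 0.351% ± 0.191 and 0.274% ± 0.0669 (SD, n = 2), with an exact two-sided permutation p = 1. The cDC1-like share of gated cells was 5 of 20 and 7 of 38 cells (18.4%) after vehicle and 20.9% and 14.3% after PM (exact permutation p = 0.667). With 2 mice against 2 this test cannot go below 0.33. Without the gate on H2-Ab1 the cDC1-like share was 24.2% ± 4.40 and 36.5% ± 3.07 and higher in all 4 vehicle-PM pairs, and with cells thinned to 3000 UMIs it was 15.3% ± 6.70 and 7.14% ± 3.37 and lower in all 4 pairs (SD, n = 2; exact permutation p = 0.333 in both).

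Expression after PM was tested on the counts of all gated cells summed per mouse, with edgeR's quasi-likelihood test. Of 5731 genes that passed the filter on low counts, 3 rose (0.0523%) and 1 fell (0.0174%) at an adjusted p below 0.05 and an absolute log2 fold change above 0.5. At an unadjusted p below 0.05, 242 genes were higher (4.22%) and 208 were lower (3.63%). The genes that rose were Ly6c2, Mpo and Ctsg, and the gene that fell was Rgs1. Without vehicle replicate 1 there were 28 rises and 11 falls, without vehicle replicate 2 there were 21 and 24, without PM replicate 1 there were 34 and 13 and without PM replicate 2 there were 9 and 7, and these 4 genes were called each time.

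Ly6c2 encodes a GPI-anchored surface protein of monocytes, pDCs and many other marrow cells. Its level was 472 and 320 CPM with vehicle and 1385 and 1142 CPM with PM. Both PM mice were above both vehicle mice. The log2 fold change was 1.70 (SE 0.23, adjusted p = 0.0206, edgeR). The transcripts were spread over cells, since 12 of 20 and 19 of 38 gated cells held a UMI after vehicle and 37 of 43 and 16 of 21 after PM, and without the fullest cell of each mouse 88, 116, 559 and 233 UMIs remained. In cDC2-like cells it was at 648, 344, 924 and 1369 CPM (log2 fold change 1.28, adjusted p = 0.367, edgeR). A single cDC2-like cell of PM replicate 2 held 110 of the 343 Ly6c2 UMIs of that mouse's gated cells. The value of 1369 CPM therefore rests largely on that cell, and the class was not tested without it. Cells of 3 other gates were also higher in both PM mice. MHC II monocyte-gated cells, whose gate counts Ly6c2, had 899, 461, 2235 and 2897 CPM, pDC-gated cells 1353, 1326, 2552 and 2852 CPM and neutrophil-gated cells 1481, 1309, 1980 and 1859 CPM. T cells, at 1106, 1535, 1614 and 1452 CPM, overlapped. Without cells of another lineage Ly6c2 was not called in gated cDCs (log2 fold change 1.25, adjusted p = 0.924, and 1.37, adjusted p = 0.657, with Ighm and Igkc not counted, edgeR). The part that free RNA from such cells had in the rise was not tested. The difference of the PM effect from that in monocyte-gated cells was -0.22 (SE 0.21, adjusted p = 0.949) and from that in pDC-gated cells 0.64 (SE 0.24, adjusted p = 0.439, both edgeR). Ly6c2 lies at chr15:75108158-75111970 on the minus strand of GRCm38 and has a close paralog, Ly6c1, so reads could be split between them.

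Mpo and Ctsg encode myeloperoxidase and cathepsin G of the azurophil granules of neutrophil precursors. Mpo was at 6.99 and 20.6 CPM after vehicle and 470 and 1082 CPM after PM (log2 fold change 5.67, SE 0.59, adjusted p = 0.0303, edgeR). Ctsg was at 6.99 and 0 CPM after vehicle and 98.5 and 183 CPM after PM (log2 fold change 5.48, SE 0.71, adjusted p = 0.0206, edgeR). As only 2 Ctsg UMIs were counted in the vehicle mice against 99 in the PM mice, the ratio of their shares was 47.9 with a 95% exact counting interval of 12.9 to 401. Nearly all of these UMIs sat in 1 cell per PM mouse. A single cell held 88.1% of Mpo and 90.9% of Ctsg UMIs in PM replicate 1, and 97.8% and 98.2% in PM replicate 2. Without that cell 25 and 7 Mpo UMIs and 4 and 1 Ctsg UMIs were left. A Mpo UMI was found in 28.7% of gated cells and 26.7% of T cells, and a Ctsg UMI in 4.9% and 5.7%. With cells left out that had over 1% of their UMIs in neutrophil genes or 3 or more UMIs of another lineage (without Ighm and Igkc, an alternative chosen after seeing the data), 18, 32, 35 and 13 cells remained, and the counts were 0 rises and 1 fall, Rgs1.

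Rgs1, a regulator of G protein signaling that dampens chemokine receptor signals, was at 115 and 119 CPM after vehicle and 6.71 and 19.98 CPM after PM. Both PM mice were below both vehicle mice. The log2 fold change was -3.21 (SE 0.46, adjusted p = 0.0290, edgeR). These levels rest on 85 UMIs after vehicle and 9 after PM. A single cell held 24 of the 33 UMIs in vehicle replicate 1 and 17 of the 52 in vehicle replicate 2. Without the fullest cell of each mouse 9, 35, 2 and 4 UMIs were left, so the likeness of the vehicle values rests on single cells. In cDC2-like cells Rgs1 was at 163, 93.1, 17.3 and 41.2 CPM (log2 fold change -2.11, adjusted p = 0.324, edgeR). In MHC II monocyte-gated cells it was at 71.5, 87.7, 40.6 and 96.0 CPM and in pDC-gated cells at 44.6, 28.5, 30.04 and 54.4 CPM. The fall in gated cDCs differed from the effect in both (difference -2.86, SE 0.50, adjusted p = 0.0297 against monocyte-gated, and -3.49, SE 0.55, adjusted p = 0.0102 against pDC-gated cells, edgeR). The difference from pDC-gated cells was not called when either vehicle mouse was left out (adjusted p = 0.214 without vehicle replicate 1 and 0.712 without vehicle replicate 2), and that from monocyte-gated cells was not called without cells of another lineage. The fall itself was not called with DESeq2 (adjusted p = 0.0918) or without the gate on H2-Ab1 (edgeR, adjusted p = 0.968), and Rgs1 did not pass the filter on low counts in thinned cells or without cells of another lineage when Ighm and Igkc were counted.

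The genes next in order did not pass the adjusted threshold. They were chosen only from genes in which both PM mice lay on 1 side of both vehicle mice, so that this trait is no result. It held upward for 17.7% and downward for 20% of all genes tested. On the higher side, Retnlg, a neutrophil gene, was at 367, 526, 1083 and 1062 CPM (log2 fold change 1.27, adjusted p = 0.0662, edgeR), and 1 cell held 92.4% and 93.9% of its UMIs in the vehicle mice. The interferon-inducible Ifi205, a leading gene of cDC1-like cells, was at 94.4, 77.8, 190 and 210 CPM (log2 fold change 1.24, adjusted p = 0.227). Myb, a transcription factor of progenitors, was at 10.5, 6.86, 47.0 and 56.6 CPM, and Igfbp4 at 20.98, 11.4, 62.7 and 83.2 CPM. On the lower side, Gngt2, a G protein subunit, was at 154, 105, 26.9 and 26.6 CPM (log2 fold change -2.22, adjusted p = 0.0612). Clec4a3 and Clec4a1, both C-type lectins of myeloid cells, were at 157, 146, 51.5 and 26.6 CPM and at 161, 144, 58.2 and 76.6 CPM. Junb, Ddit4, Dusp3, Tgfbi and Pde4b followed, with log2 fold changes from -1.04 for Junb to -1.90 for Ddit4. Near-identical members of the Clec4a family can share reads.

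**Figure D3:**
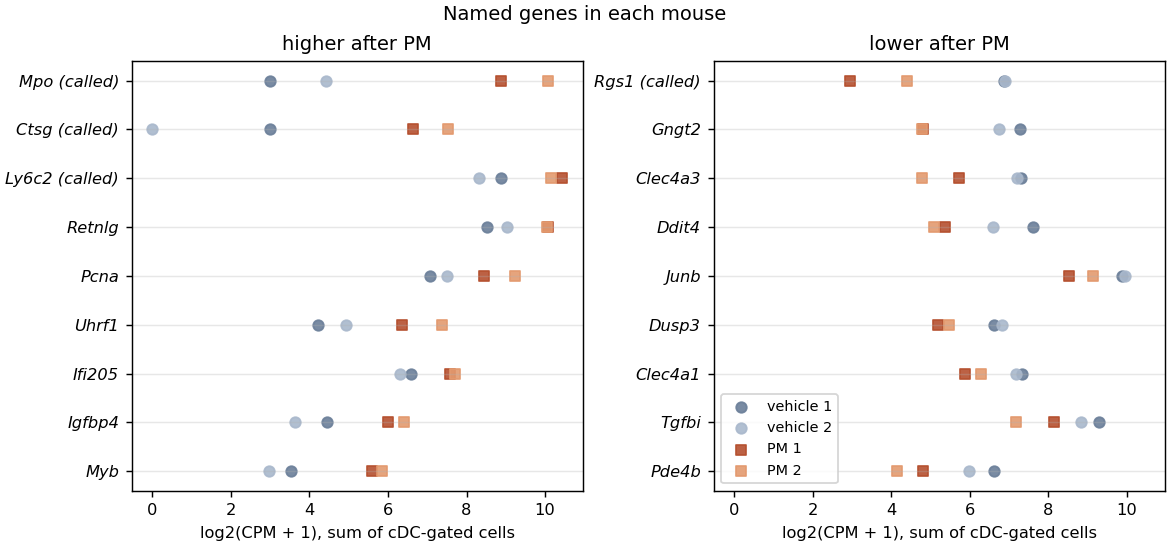
Level of 9 named genes on each side, as log2(CPM + 1) of the counts summed over cDC-gated cells, with 1 point per mouse (circles vehicle, squares PM). The genes were chosen so that both squares lie on 1 side of both circles, and 4 genes passed the adjusted threshold.

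Genes of DNA replication were compared as a list. S phase genes code for the helicase (Mcm2 to Mcm7), the sliding clamp (Pcna) and enzymes that supply nucleotides (Rrm1, Rrm2, Tyms, Dut). Of 30 genes, 22 passed the filter, none was called, and 22 had a log2 fold change above 0. In 21 both PM mice were above both vehicle mice, which held for 17.7% of all genes tested, and 18 had an unadjusted p below 0.05, against 4.22% of all genes in that direction. Their median log2 fold change was 1.48, beside 0.0016 for all genes tested. Genes of 1 list are not independent of each other. Pcna was at 133, 181, 349 and 599 CPM in vehicle replicates 1 and 2 and PM replicates 1 and 2 (log2 fold change 1.59, SE 0.29, adjusted p = 0.110, edgeR). Uhrf1, which maintains DNA methylation at replication forks, was at 17.5, 29.7, 80.6 and 166 CPM (log2 fold change 2.29, SE 0.45, adjusted p = 0.186). Mcm3 was at 31.5, 52.6, 98.5 and 186 CPM, Mcm5 at 83.9, 50.3, 132 and 160 CPM and Mcm6 at 31.5, 64.0, 107 and 176 CPM. In all of these PM replicate 2 was the highest.

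G2M genes showed no such shift. All 30 were tested, 16 were higher and 14 lower, and the median log2 fold change was 0.04. Mki67 was at 552, 364, 521 and 506 CPM and Top2a at 993, 409, 465 and 862 CPM, with the vehicle mice on both sides.

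Summed over its 30 genes, the S phase list was at 1042 and 1134 CPM after vehicle and 2144 and 3743 CPM after PM in gated cells. Within cDC1-like cells the sums were 1358, 2860, 3066 and 6517 CPM from 5, 7, 9 and 3 cells, and within cDC2-like cells 911, 599, 716 and 2087 CPM, where PM replicate 1 fell between the vehicle mice. Cells with both markers had 873 CPM in vehicle replicate 2 and 3028 and 3961 CPM after PM. The neutrophil granule list summed to 1421 CPM in the same cells of vehicle replicate 2 and to 22206 and 54667 CPM after PM, and in cDC1-like cells to 1120, 786, 42366 and 56231 CPM. In cDC2-like cells it summed to 48610, 25190, 2131 and 35168 CPM. Without the 4 cDC1-like cells of PM replicate 1 that held at least 2 Csf1r UMIs, its S phase sum was 1889 CPM, between the vehicle mice, and its neutrophil granule sum 19684 CPM, with 1364 of the 1459 UMIs in 1 cell. In cDC1-like cells of PM replicate 2, 1 cell held 3513 of the 3555 neutrophil granule UMIs. The part of neutrophil RNA in the S phase sums was not tested. MHC II monocyte-gated cells also had more after PM (802, 497, 1482 and 1532 CPM), as did neutrophil-gated cells (2049, 2064, 2531 and 2310 CPM), and pDC-gated cells less (2802, 2335, 2126 and 1722 CPM). Of the S phase genes, Pcna was called as different in its PM effect from pDC-gated cells (difference 1.84, SE 0.34, adjusted p = 0.0371, edgeR) and not from monocyte-gated cells (0.97, SE 0.33, adjusted p = 0.597). The first of these calls ended without vehicle replicate 1, vehicle replicate 2 or PM replicate 2 (adjusted p = 0.850, 0.712 and 0.0528). The median of the list was 0.45 without the gate on H2-Ab1, where all 30 genes were tested, and 0.81 without cells of another lineage (Ighm and Igkc not counted). Cells with both markers made up 0% and 15.8% of gated cells after vehicle and 30.2% and 28.6% after PM, and their part in these values was not tested.

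**Figure D4:**
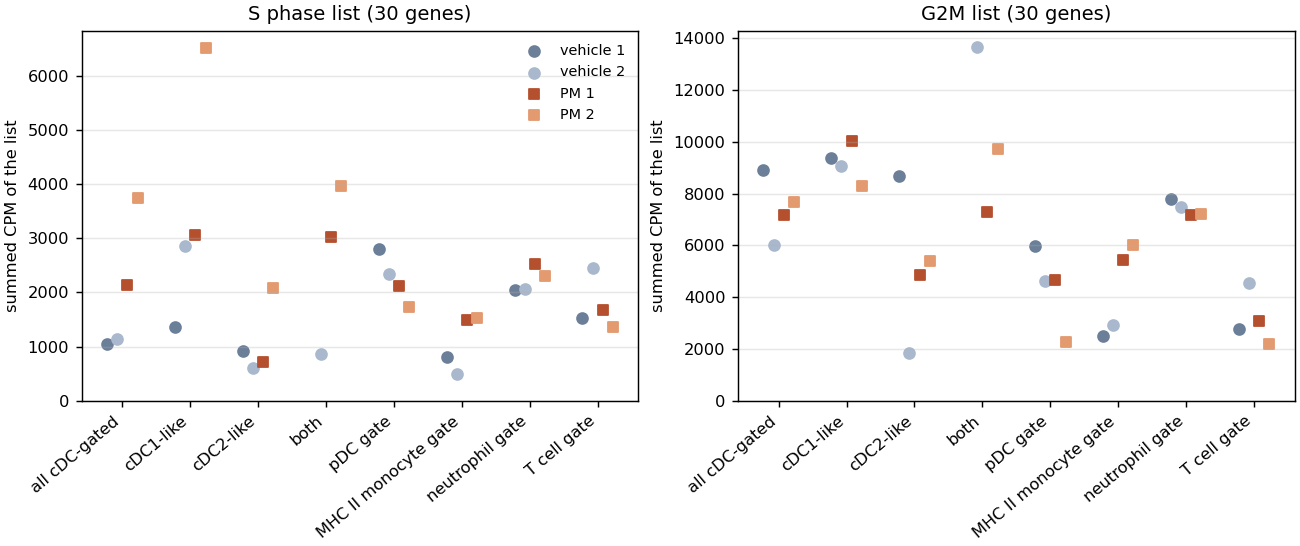
Summed CPM of the 30 S phase genes and the 30 G2M genes in cDC-gated cells, their 3 classes and 4 other gates, with 1 point per mouse (circles vehicle, squares PM). For S phase both PM mice are above both vehicle mice in all cDC-gated cells, cDC1-like cells, monocyte-gated and neutrophil-gated cells and below them in pDC-gated cells, while the G2M sums of cDC-gated cells overlap.

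Many S phase genes are controlled by E2F transcription factors, and promoters are shown for 3 genes of the list, in which all 22 tested genes were higher after PM and none was called. RefSeq promoter windows of 300 bases on GRCm38.p6 were searched for TTTCCCGC, TTTGGCGC, TTTCGCGC and TTTGCCGC on both strands. At least 1 match was in 9 of the 24 S phase genes with a window (37.5%), in 1 of 26 G2M genes (3.85%) and in 704 of 27025 genes overall (2.6%). A match shows these letters and not a bound site. Mcm3, Mcm5 and Mcm6 are given as helicase genes with more than 1 match, which is in capitals, read 5′ to 3′ on the strand of the gene. The 2 matches of Mcm5 overlap, as do the first 2 of the 3 in Mcm6. The windows are chr1:20820263-20820562 (minus strand) for Mcm3, chr8:75109259-75109558 (plus strand) for Mcm5 and chr1:128359656-128359955 (minus strand) for Mcm6.
Mcm3: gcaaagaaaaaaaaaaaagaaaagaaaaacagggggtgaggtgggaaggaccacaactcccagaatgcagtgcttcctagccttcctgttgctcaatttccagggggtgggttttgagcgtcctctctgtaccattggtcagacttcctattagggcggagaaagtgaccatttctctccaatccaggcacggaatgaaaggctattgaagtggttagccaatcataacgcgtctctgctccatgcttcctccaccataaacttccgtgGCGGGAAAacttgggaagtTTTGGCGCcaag
Mcm5: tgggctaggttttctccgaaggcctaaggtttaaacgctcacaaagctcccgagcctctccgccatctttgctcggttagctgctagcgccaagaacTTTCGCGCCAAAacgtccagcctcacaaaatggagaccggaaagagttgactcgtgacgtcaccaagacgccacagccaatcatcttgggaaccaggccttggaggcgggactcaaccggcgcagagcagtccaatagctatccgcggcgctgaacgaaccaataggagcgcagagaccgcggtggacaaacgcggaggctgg
Mcm6: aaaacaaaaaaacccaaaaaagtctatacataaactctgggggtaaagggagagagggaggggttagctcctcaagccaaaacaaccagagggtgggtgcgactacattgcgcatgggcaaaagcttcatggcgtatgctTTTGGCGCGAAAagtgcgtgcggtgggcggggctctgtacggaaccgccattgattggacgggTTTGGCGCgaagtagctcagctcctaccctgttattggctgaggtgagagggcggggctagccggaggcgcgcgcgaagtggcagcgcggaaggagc
The Pcna window had no match, which says only that these letters are not in it.

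The subset identity of the cells was compared next. Of the 8 tested cDC defining genes none was called, and Itgax (136, 105, 128 and 86.6 CPM) and Zbtb46 (52.5, 41.2, 31.3 and 36.6 CPM) had log2 fold changes of -0.11 and -0.43. Of 10 tested cDC1 genes, 3 were higher and 7 lower with a median of -0.35, and of 13 tested cDC2 genes 5 were higher and 8 lower with a median of -0.10, and none in either list was called. Irf8 was at 983, 563, 750 and 869 CPM and did not separate the groups. In the cDC2 list Sirpa (322, 258, 166 and 166 CPM, log2 fold change -0.78) and Clec10a (164, 318, 121 and 96.6 CPM, log2 fold change -1.14) were lower in both PM mice, and Clec12a (76.9, 158, 186 and 260 CPM, log2 fold change 0.88) and Cfp were higher, with adjusted p from 0.339 to 0.604 (edgeR). Naaa, an acid amidase that marks cDC1, was at 874, 396, 470 and 250 CPM. Xcr1 and Clec9a were gate genes and were not tested. Of the transcription factors of dendritic cells, 24 were tested, 11 higher and 13 lower, and none was called.

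Antigen presentation genes were abundant. Of 13 tested MHC class II genes 4 were higher and 9 lower with a median of -0.03, and none was called. Cd74, the invariant chain, was at 9169, 9662, 9756 and 8541 CPM, and H2-Aa at 4805, 5015, 5393 and 4725 CPM. Ciita was at 290, 272, 204 and 236 CPM (log2 fold change -0.34, adjusted p = 0.752, edgeR). Ctss, the protease that trims the invariant chain, was at 955, 1114, 741 and 466 CPM (log2 fold change -0.75, adjusted p = 0.393). For MHC class I, 16 of 22 tested genes were higher, with a median of 0.18 and none called. Both PM mice were above both vehicle mice in 10 (17.7% of all genes tested) and below them in 3 (20%), and 5 were higher at an unadjusted p below 0.05 (4.22%) and 0 lower (3.63%). The nonclassical H2-Q7 was at 76.9, 20.6, 152 and 103 CPM (log2 fold change 1.55, adjusted p = 0.416), H2-K1 at 1129, 832, 1271 and 1189 CPM, and Psmb9, an immunoproteasome subunit, at 252, 231, 309 and 383 CPM. In cDC2-like cells alone the summed MHC class II list was at 23751, 31675, 37814 and 36958 CPM. This sum counts the gate gene H2-Ab1, at 4137, 5308, 7015 and 6839 CPM, and is a description only. Outside the gates, H2-Aa was at 4434, 6138, 7887 and 7656 CPM in these cells and Cd74 at 8448, 12162, 14868 and 13554 CPM. Both belong to the same list as H2-Ab1, whose raw UMIs chose the cells, and are no independent measure. The cDC2-like cells had medians of 9026, 9927, 6848 and 7657 UMIs. A limit in raw UMIs stands for a higher CPM in a shallower cell, and its part in these values was not tested. The MHC class I list was at 9176, 8302, 12293 and 11632 CPM, with both PM mice above both vehicle mice. Median log2 fold changes of the class II list without H2-Ab1 and of the class I list were 0.45 and 0.47. In cDC1-like cells both sums overlapped between the groups. H2-Q genes are near-identical copies and their counts are uncertain. Tap1, a peptide transporter subunit, was at 252, 252, 244 and 226 CPM (log2 fold change -0.08, SE 0.22, adjusted p = 0.965).

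Of 69 type I interferon response genes in the files, 48 were tested, 31 were higher and 17 lower, with a median of 0.21 and none called. At an unadjusted p below 0.05, 7 were higher and 1 was lower, beside 4.22% and 3.63% of all genes tested. Rsad2, an antiviral enzyme, was at 20.98, 36.6, 73.8 and 49.9 CPM, and Usp18, an inhibitor of the interferon receptor, at 17.5, 36.6, 110 and 39.96 CPM. Ifitm2 was the lower gene, at 584, 780, 468 and 336 CPM. Ifi35 was at 62.9, 50.3, 76.1 and 49.9 CPM (log2 fold change 0.22, SE 0.37, adjusted p = 0.945, edgeR). Isg15 did not pass the filter, at 14.0, 18.3, 49.2 and 16.6 CPM. The median turned to -0.14 without PM replicate 1 and was 0.45 without PM replicate 2, so its sign rested on PM replicate 1, and it was -0.02 over 18 genes without cells of another lineage. The 7 tested interferon gamma genes had a median of -0.25.

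Secreted factors were few. Of 32 chemokine and cytokine genes 7 passed the filter, with a median of -0.69, and none was called. Ccl9 was at 472, 762, 416 and 310 CPM and Ccl6 at 395, 604, 327 and 286 CPM, lower in both PM mice (log2 fold changes -0.75 and -0.69, adjusted p = 0.486 and 0.516, edgeR). Tnf was at 17.5, 6.86, 4.48 and 6.66 CPM, Cxcl12 at 0, 9.15, 13.4 and 19.98 CPM, and Cxcl10 at 0 in 3 of the 4 mice. Ccl7, Il6, Il13 and Il19 had no UMI in gated cells of any mouse.

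Of 17 tested growth factor and cytokine receptor genes 13 were lower, in 10 of them with no overlap of the groups (20% of all genes tested lay so), and the median was -0.54 with none called. Ifngr1, a chain of the interferon gamma receptor, was at 301, 377, 181 and 190 CPM (log2 fold change -0.86, SE 0.23, adjusted p = 0.339, edgeR). Csf2rb, shared by the receptors for GM-CSF and interleukins, was at 231, 142, 98.5 and 93.2 CPM and Csf1r at 150, 206, 116 and 49.9 CPM. Among 16 tested pattern recognition receptors 12 were lower with a median of -0.36, and 8 of these did not overlap, beside the same 20% of all genes. Tlr2 was at 66.4, 61.7, 29.1 and 33.3 CPM and its adaptor Myd88 at 112, 142, 78.3 and 66.6 CPM. Cx3cr1, the fractalkine receptor, was at 220, 370, 166 and 113 CPM (log2 fold change -1.06, adjusted p = 0.339), and Ccr2 at 1514, 2335, 1616 and 1239 CPM. In the monocyte and macrophage list, 10 of 11 tested genes were lower with a median of -0.55, the exception being Ly6c2, and the median was -0.11 without PM replicate 2.

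Early response and heat shock genes formed the handling stress list. Of its 21 tested genes, 19 were lower with a median of -0.59 and none was called. Junb was at 937, 990, 369 and 563 CPM (log2 fold change -1.04, SE 0.22, adjusted p = 0.244, edgeR), Fos at 1217, 679, 150 and 703 CPM, Egr1 at 441, 288, 58.2 and 403 CPM, and the heat shock gene Hspa1b at 105, 226, 71.6 and 46.6 CPM. Hsp90aa1 went the other way, at 308, 487, 566 and 763 CPM. Glucocorticoid-responsive genes shared Dusp1 with this list, and 4 of 6 tested were lower, all 4 without overlap of the groups (20% of all genes tested were lower in this way) and 3 at an unadjusted p below 0.05 (3.63% of all genes), with a median of -1.01 and none called. Tsc22d3 was at 490, 464, 324 and 256 CPM, and Fkbp5 was higher, at 27.97, 18.3, 38.0 and 56.6 CPM. The 20 ribosomal protein genes had a median of 0.06.

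The genes of the drug's target family were at low levels. Of 11 histone deacetylase genes 6 passed the filter, 4 were higher and 2 lower, and none was called. Hdac1 was at 66.4, 101, 112 and 110 CPM and Hdac2 at 76.9, 57.2, 55.9 and 63.3 CPM. The 19 tested histone and chromatin genes had a median of 0.09, and 17 tested apoptosis and survival genes one of -0.08, with Mcl1 at 832, 716, 571 and 693 CPM. None of these was called. Of 11 tested costimulation and checkpoint genes 5 were higher and 6 lower, of 20 tested endocytosis and lysosome genes 16 were lower with a median of -0.24, and none was called. The 6 tested chemokine receptors and 6 tested genes of mature cDCs had medians of -0.35 and 0.04.

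Genes typical of other cell types varied between the mice. The neutrophil granule list summed to 34675 and 14723 CPM after vehicle and 20650 and 47126 CPM after PM in gated cells, S100a8 being its most abundant gene in vehicle replicate 1 and S100a9 in the other 3 mice, and in T cells to 43449, 26168, 57895 and 22014 CPM. All 10 genes of the list were tested in gated cells, and 9 were higher after PM, 4 of them without overlap of the groups (17.7% of all genes) and 2 at an unadjusted p below 0.05 (4.22%), with 1 called and a median of 0.67. In cDC1-like cells the sums were 1120 and 786 CPM after vehicle and 42366 and 56231 CPM after PM. The larger cDC2-like class went the other way on average, at 48610 and 25190 CPM after vehicle and 2131 and 35168 CPM after PM. The median log2 fold change in that class was -0.97 over 9 tested genes. Igkc was at 31.5, 48.0, 1490 and 69.9 CPM and Ighg2b at 10.5, 4.57, 868 and 13.3 CPM, with 91.6% and 93.8% of the UMIs of PM replicate 1 in a single cell. Of 14 pDC genes 5 were tested and all were higher, 4 without overlap of the groups (17.7% of all genes), with a median of 1.04, and these included Ly6c2, Bst2 (66.4, 181, 324 and 206 CPM) and Tcf4, while Cox6a2 was at 0. The summed pDC list was also higher after PM in monocyte-gated cells (1272, 928, 2816 and 3413 CPM) and neutrophil-gated cells (1612, 1436, 2225 and 2031 CPM). It overlapped between the groups in pDC-gated cells and T cells. The source of these transcripts was not tested. The T and NK cell, megakaryocyte and basophil lists had no gene that passed the filter, Pf4 and Ppbp were at 0, and the B cell list had 3. Its gene Cd79b was at 14.0, 29.7, 42.5 and 19.98 CPM. The erythroid list had 1 tested gene, Hba-a2, at 10.5, 41.2, 80.6 and 166 CPM, and the progenitor list had Kit and Ly6a.

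**Figure D5:**
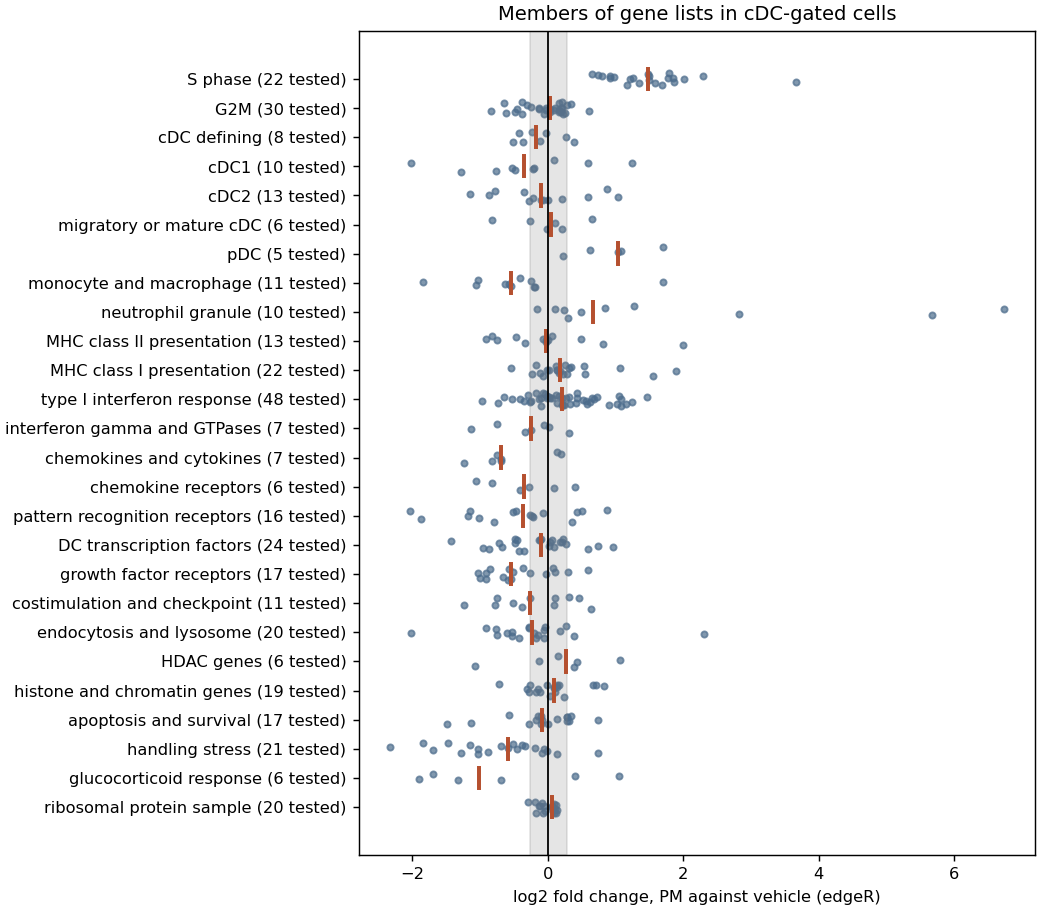
Log2 fold change of PM against vehicle for each tested gene (points) of the 26 lists with at least 5 genes tested, with the median of the list (bar), the median of all 5731 genes tested (line) and their middle 50% (band). The S phase and pDC lists lie wholly above 0, with medians of 1.48 over 22 genes and 1.04 over 5, and the medians of the 25 lists other than S phase run from -1.01 to 1.04.

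In cDC2-like cells alone, with 15, 25, 21 and 12 cells, 0 of 3502 genes were called in either direction (0.0%, edgeR), with 110 genes higher and 115 lower at an unadjusted p below 0.05 and 1 gene called lower by DESeq2. Values for cDC1-like cells were not tested, because no mouse had 10 of them.

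The PM effect was then set against that in the cells most alike, within the same mice. Against pDC-gated cells (602 cells), the effect differed in 18 of 8600 genes, 6 more positive in gated cDCs (0.0698%) and 12 more negative (0.14%), 0.209% in all. Against MHC II monocyte-gated cells (320 cells) it differed in 6 of 7206 genes, 1 more positive (0.0139%) and 5 more negative (0.0694%), 0.0833% in all. Myb was at 210, 191, 187 and 210 CPM in pDC-gated cells, where it did not vary with PM, beside the higher values in gated cDCs given above. Apoe rose in pDC-gated cells (13.4, 20.6, 135 and 96.3 CPM, adjusted p = 0.0141, edgeR) and at 24.5, 130, 73.8 and 46.6 CPM in gated cDCs. In monocyte-gated cells Cd24a was at 73.9, 56.2, 265 and 304 CPM and Lgals1, which encodes galectin-1, at 148, 218, 576 and 628 CPM. In gated cDCs Cd24a was at 462, 270, 443 and 489 CPM and Lgals1 at 643, 805, 1081 and 842 CPM. The centromere gene Cenpa was at 43.6, 60.7, 163 and 142 CPM in monocyte-gated and 269, 226, 219 and 150 CPM in gated cDCs. Tppp3 went from 211 and 283 to 60.6 and 46.0 CPM in monocyte-gated cells and was at 14.0, 38.9, 55.9 and 39.96 CPM in gated cDCs. With vehicle replicate 1 or vehicle replicate 2 left out, 0 genes were called as different from pDC-gated cells (edgeR, with 166 or 240 more positive and 259 or 246 more negative at an unadjusted p below 0.05). Without PM replicate 1 there were 108 more positive and 55 more negative genes, and without PM replicate 2 there were 16 and 42.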

How the data were processed

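Bone marrow of 4 mice was profiled with 10x Genomics 3' chemistry. The authors ran Cell Ranger 6.0.1 and deposited raw counts, that is the UMIs of each gene in each barcode, not normalized. Their methods name GRCm38, while the submitters' processing notes name GRCm39 and STAR. Of 32285 gene IDs in the files, 32158 are in GENCODE M21, and GRCm38 was used here. Depth was 69828595 to 109447030 UMIs per library.

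Of 41393 barcodes, those with 300 or more genes and no more than 20% mitochondrial UMIs were kept. No doublet caller was run, and cells with transcripts of another lineage were left out as an alternative. The pDC gate required at least 2 UMIs of Siglech, at least 1 of Bst2 and 0 of Cd79a. The MHC II monocyte gate required at least 5 UMIs of H2-Ab1, at least 1 of Csf1r and of Ccr2 and Ly6c2 together, and 0 of Flt3, Siglech and Cd79a. The neutrophil gate required 20 UMIs of S100a8 and S100a9 together and fewer than 5 of H2-Ab1, a limit that the T cell gate shared. Counts were summed per mouse.

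The quasi-likelihood test of edgeR 4.0.16 was run on the sums under R 4.3.3, with TMM factors, the filterByExpr filter and a robust fit, with Benjamini-Hochberg adjustment over all genes tested. Differences between gates were tested as an interaction with the mouse as a block. Shares were tested by exact two-sided permutation of mice. The sources used here do not tie vehicle to PM mice of the same number. A legend of the study speaks of vehicle and PM samples from 2 independent experiments and does not name the mice of each. The main test had no term for the experiment. The p-values of edgeR rest on the spread between 2 mice per group, with variance estimates that are moderated across genes. Counting intervals cover counting error only. The test was checked on simulated data.

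Named genes were the markers and gate genes, the cDC lists, 10 genes named by the study, the 10 called genes with the largest change in each direction (averaging 20 CPM or more and with 1 direction in all 4 pairs, filled up by the smallest unadjusted p, and without immunoglobulin, T cell receptor, mitochondrial, hemoglobin and gate genes), the 5 largest called interactions in each direction, and the called and the 4 most abundant members of each list. Other list members, and the promoters, were chosen after their values were seen. The members and the gene lists were chosen with earlier results of these data known. Alternatives changed the normalization (RLE or library totals), the test (DESeq2 1.42.0), the filter, the gates, the depth of cells, the replicate block and the mice included. A few named genes are not reported here.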

Additional observations from a re-analysis of the deposited data

Results flagged for a closer look

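The genes below stand out because the PM effect in cDC-gated cells differed from that in another gate of the same mice, by the interaction test of edgeR. Against pDC-gated cells the difference of log2 fold changes was 4.56 for Mt1, 2.57 for Myb and 1.84 for Pcna, and it was -3.97 for Clec4a3, -3.49 for Rgs1, -3.10 for Apoe, -3.09 for Slamf7 and -3.07 for Gngt2. It was 7.11 for Atp1b1, which had no UMI in gated cells of either vehicle mouse, so that this value depends on the prior count and is no bound. Clec4a3 was near the floor in pDC-gated cells, at 3.57, 0.791, 14.5 and 2.27 CPM, so that its value depends on the prior count too. Slamf7 was also low in pDC-gated cells of the vehicle mice, at 1.78 and 5.54 CPM, beside 23.1 and 23.8 CPM after PM. Mt1 was at 309 CPM in gated cells of PM replicate 1 and at 26.6 to 45.5 CPM in the other 3 mice. In pDC-gated cells Mt1 was at 88.2, 62.5, 26.3 and 1.13 CPM, the last near the floor.

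Against MHC II monocyte-gated cells the difference was 3.06 for Tppp3, -2.86 for Rgs1, -1.94 for Cenpa, -1.71 for Cd24a and -1.27 for Lgals1. Of these 5 genes, Tppp3, Cenpa, Cd24a and Lgals1 were called between PM and vehicle in monocyte-gated cells, and Rgs1 was called in gated cDCs. Calls were more common in monocyte-gated cells, where 128 of 7589 genes were higher and 146 lower, beside 3 and 1 of 5731 in gated cDCs.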

How the results depend on the processing

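Counts of rises and falls of PM against vehicle in gated cDCs moved with most settings. They were 51 and 38 with no filter on low counts, 0 and 0 without cells of another lineage (959 genes tested) and 0 and 1 when Ighm and Igkc were not counted there. Without the gate on H2-Ab1 they were 10 and 4, and thinned to 3000 UMIs they were 4 and 3. DESeq2 called 4 rises and 0 falls, among them 3 of the 4 genes called by edgeR. Leaving out 1 mouse gave 9 to 34 rises and 7 to 24 falls, with all 4 genes called each time, where the lone mouse of a group is assumed to vary like the others. RLE factors, library totals and an H2-Ab1 limit of 10 gave the same 4 genes. With the replicate number as a block 1 gene rose, Mpo, and 0 fell. The deviations of mice with the same number were almost unrelated (r = -0.122), and with the pairing crossed, which was chosen after seeing the data, 17 genes rose and 15 fell. The labels do not say that the numbers pair the mice.

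In cDC2-like cells DESeq2 called 1 fall, and leaving out 1 mouse gave 0 to 31 rises and 4 to 34 falls. The difference from pDC-gated cells gave 0 to 108 more positive and 0 to 55 more negative genes when 1 mouse was left out. The difference from monocyte-gated cells gave 9 to 18 and 9 to 51, and 0 and 2 without cells of another lineage. Causes of these changes were not tested, except that fewer genes could be tested without cells of another lineage.

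The gated share differed by -0.224 percentage points between PM and vehicle with cells outside the neutrophil gate as denominator, by -0.0769 over all kept cells, and by -0.138 to -2.21e-05 under the other settings tried. The cDC1-like share differed by -4.10 percentage points, by 12.4 without the gate on H2-Ab1 and by -10.0 without cells of another lineage. None of the 20 genes named for the change after PM turned its sign in the settings that tested it, 13 to 16 per gene. Nor did the 14 named differences between gates. The 20 genes were picked with both PM mice on 1 side of both vehicle mice. Dropping a mouse could thus hardly turn their sign, and those fits are no test of it. The 14 differences were picked by size among called ones, so their stable signs are weak evidence too. Of the list medians, 335 values moved by less than the SD over the 4 vehicle-PM pairs and 55 by more. The PM effect in cDC1-like cells and the difference from pDC-gated cells without cells of another lineage were not run, as too few cells were left. With 122 gated cells in all, a gene at 20 CPM is backed by few UMIs per mouse.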
